A study of Mus musculus with 6 samples.

Results

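Store-operated calcium entry is the route by which a cell refills and sustains calcium signals after its internal store has been emptied, and 10 of its genes are described here across 6 RNA-seq libraries. The genes were chosen by name, with earlier results of these data known: the ORAI channel genes Orai1, Orai2 and Orai3, the store sensor genes Stim1 and Stim2, the release channel genes Itpr1 and Itpr2, the calcineurin subunit genes Ppp3ca and Ppp3r1, and the transcription factor gene Nfatc3. All 10 were found among the 23284 gene names of each library, and all 10 passed the filter of a mean of at least 1 FPKM (fragments per kilobase of transcript, scaled to the number of mapped fragments) that left 10865 genes for testing. Each library held cells positive for green fluorescent protein obtained by sorting from calvaria, the skull cap. All mice carried the CX3CR1-EGFP reporter, in which the fluorescent protein marks cells using the gene of the chemokine receptor CX3CR1, and all had received lipopolysaccharide (LPS), an inflammatory component of bacteria, at the calvarial periosteum. With the LPS, 1 group received 10 mg/kg CTLA4-Ig (abatacept), a fusion protein that binds CD80 and CD86, and the other 10 mg/kg whole human IgG as the control. Cells were taken 5 days later and each group had 3 libraries. The sources used here do not give strain, age or sex, nor how many mice each library stands for, so the p-values measure the spread between these libraries.

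In this pathway a stimulated surface receptor activates a phospholipase C, which makes inositol trisphosphate (IP3). IP3 opens its receptors, encoded by the Itpr genes, and calcium leaves the endoplasmic reticulum. STIM proteins sense the fall in stored calcium and open ORAI channels in the plasma membrane, and the calcium that enters activates the phosphatase calcineurin through calmodulin. Calcineurin, made of a catalytic and a regulatory subunit, strips phosphates from NFAT proteins, which then enter the nucleus. In osteoclast precursors, the myeloid cells that fuse into bone-resorbing osteoclasts, this route is known for switching on NFATc1 during calcium oscillations. Neutrophils and monocytes use store-operated entry too, for oxidant production and migration.

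The promoters of the ORAI genes are shown because their channels are the entry step and because Orai1 and Orai2 on one side and Orai3 on the other varied differently among the libraries. An inner promoter of Rcan1 is shown because Rcan1, which encodes a feedback regulator of calcineurin, is a known target of NFAT. Values are given per gene name, so transcripts from its inner and outer promoters cannot be told apart. The Rcan1 level is therefore not used as a readout of NFAT activity. The windows hold 300 bases around the RefSeq start site (GRCm38.p6), most of them upstream, are printed from 5′ to 3′ on the strand of the gene, and carry in capitals the NFAT core, which reads GGAAA on one strand and therefore appears as TTTCC where it lies on the other, and the E-box, which reads CACGTG on both.
Orai1, chr5:123014824-123015123, plus strand: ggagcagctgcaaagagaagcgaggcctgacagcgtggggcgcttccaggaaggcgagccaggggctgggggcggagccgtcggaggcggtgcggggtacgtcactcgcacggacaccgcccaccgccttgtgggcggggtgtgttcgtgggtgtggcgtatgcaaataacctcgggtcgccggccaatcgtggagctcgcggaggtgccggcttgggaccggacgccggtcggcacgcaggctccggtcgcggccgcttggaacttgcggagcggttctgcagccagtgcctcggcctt
Orai2, chr5:136170607-136170906, minus strand: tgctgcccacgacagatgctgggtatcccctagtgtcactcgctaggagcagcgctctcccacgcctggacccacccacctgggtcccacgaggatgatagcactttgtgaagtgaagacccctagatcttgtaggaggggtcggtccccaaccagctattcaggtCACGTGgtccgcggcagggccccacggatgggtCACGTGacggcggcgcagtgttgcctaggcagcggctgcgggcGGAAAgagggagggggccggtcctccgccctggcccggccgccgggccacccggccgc
Orai3, chr7:127769565-127769864, plus strand: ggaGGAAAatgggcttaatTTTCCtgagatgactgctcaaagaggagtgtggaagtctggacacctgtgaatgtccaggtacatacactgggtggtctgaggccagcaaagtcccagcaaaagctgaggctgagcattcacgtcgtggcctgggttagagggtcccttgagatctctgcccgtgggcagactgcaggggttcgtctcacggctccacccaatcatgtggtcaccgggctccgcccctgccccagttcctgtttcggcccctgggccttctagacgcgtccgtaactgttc
Rcan1 inner promoter, chr16:92400029-92400328, minus strand: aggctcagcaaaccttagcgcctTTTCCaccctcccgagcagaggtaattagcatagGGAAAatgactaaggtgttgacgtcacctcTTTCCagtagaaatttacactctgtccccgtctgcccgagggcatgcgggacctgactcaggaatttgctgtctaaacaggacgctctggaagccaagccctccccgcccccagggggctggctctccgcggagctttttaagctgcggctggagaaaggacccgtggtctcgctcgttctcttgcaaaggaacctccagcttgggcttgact

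Both strands of each window were searched for these motifs, for the GC box, which reads GGGCGG, and for the CCAAT box. The Orai1 window held 3 GC boxes, 1 CCAAT box, 0 NFAT cores and 0 E-boxes. The Orai2 window held 2 GC boxes, 1 NFAT core and 2 E-boxes, which begin at bases 167 and 200 of the window. The Orai3 window held 2 NFAT cores, 1 GC box and 1 CCAAT box. The inner Rcan1 window held 3 NFAT cores, at bases 24, 58 and 88. The outer Rcan1 window, which is not printed, held 0 NFAT cores and 6 GC boxes. Of the 32851 RefSeq windows of this length, 61.3% held at least 1 NFAT core and 9.42% at least 3, while 35.7% held a GC box, 37.4% a CCAAT box and 7.15% an E-box. GC content was 70.3% in the Orai1 window, 68.0% in that of Orai2 and 57.7% in that of Orai3, with a median of 52.7% over all windows. Stim2, whose 3 highest libraries were those of Orai3, had 76.7% GC, 3 GC boxes and 0 NFAT cores in its window, which is not printed. GC content was 78.7% for Stim1, 73.3% for Itpr2, 70.7% for Ppp3r1, and 48.7 and 68.3% in the windows of Nfatc3. The printed ORAI windows were chosen after the values were seen, and a link of promoter letters to the levels was not tested. A match describes the letters in the window and shows no binding.

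The libraries were similar in depth. The spacing of low FPKM values put them at about 9400000 to 11400000 fragments with CTLA4-Ig and 9450000 to 10350000 in the controls, in the authors' scaling, so 1 FPKM stood for about 9.4 to 11.4 fragments per kilobase. The sorted cells carried transcripts of several cell types. Summed over 17 neutrophil markers, the libraries stood at 175698 to 242258 FPKM with CTLA4-Ig and 136632 to 155631 in the controls. Of these markers, 13 were higher on average with CTLA4-Ig, 4 lower and 0 listed at 0 throughout. S100a8 and S100a9 made up most of the sums, at 84034 and 77792 FPKM on average with CTLA4-Ig and 58842 and 51612 in the controls. The 4 lower markers were Mmp8, Elane, Prtn3 and Ctsg, and Mpo was level at 700 FPKM in both groups. The 10 monocyte markers summed to 3475 to 3901 and 3863 to 4477 FPKM, and Cx3cr1 itself stood at 22.4 ± 5.14 and 22.9 ± 10.1 FPKM (SD, n = 3). Osteoclast markers were low, with 4 of 9 at a mean of at least 1 FPKM, sums of 31.0 to 42.8 and 32.7 to 38.2 FPKM, and Oscar listed at 0 in all 6 libraries. T cell markers summed to 16.5 to 20.02 and 12.7 to 23.1 FPKM.

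All 10 genes were well measured. FPKM is scaled for length, so levels can be compared between genes, and the order by the mean over the 6 libraries was Ppp3r1 (59.1 FPKM), Ppp3ca (55.2), Orai1 (34.5), Orai2 (30.8), Nfatc3 (27.0), Orai3 (26.4), Stim1 (25.2), Itpr1 (15.7), Stim2 (9.09) and Itpr2 (5.19). Several neighbours in this order were not separated. Ppp3r1 was above Ppp3ca in 3 of 6 libraries, Orai1 above Orai2 in 5, Orai2 above Nfatc3 in 5, Nfatc3 above Orai3 in 4 and Orai3 above Stim1 in 4. The steps from Ppp3ca to Orai1, from Stim1 to Itpr1, from Itpr1 to Stim2 and from Stim2 to Itpr2 held in 6 of 6 libraries without overlap of the ranges. Among all tested genes the levels ran from percentile 23.0 for Itpr2 to percentile 85.6 for Ppp3r1. With the depth above and the longest GENCODE transcript of each gene, the lowest library held about 370 fragments of Stim2, the thinnest of the 10, and about 2330 of Ppp3ca, the fullest. Counting alone would then give a coefficient of variation of about 5.2% for Stim2 and 2.07% for Ppp3ca.

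**Figure D1:**
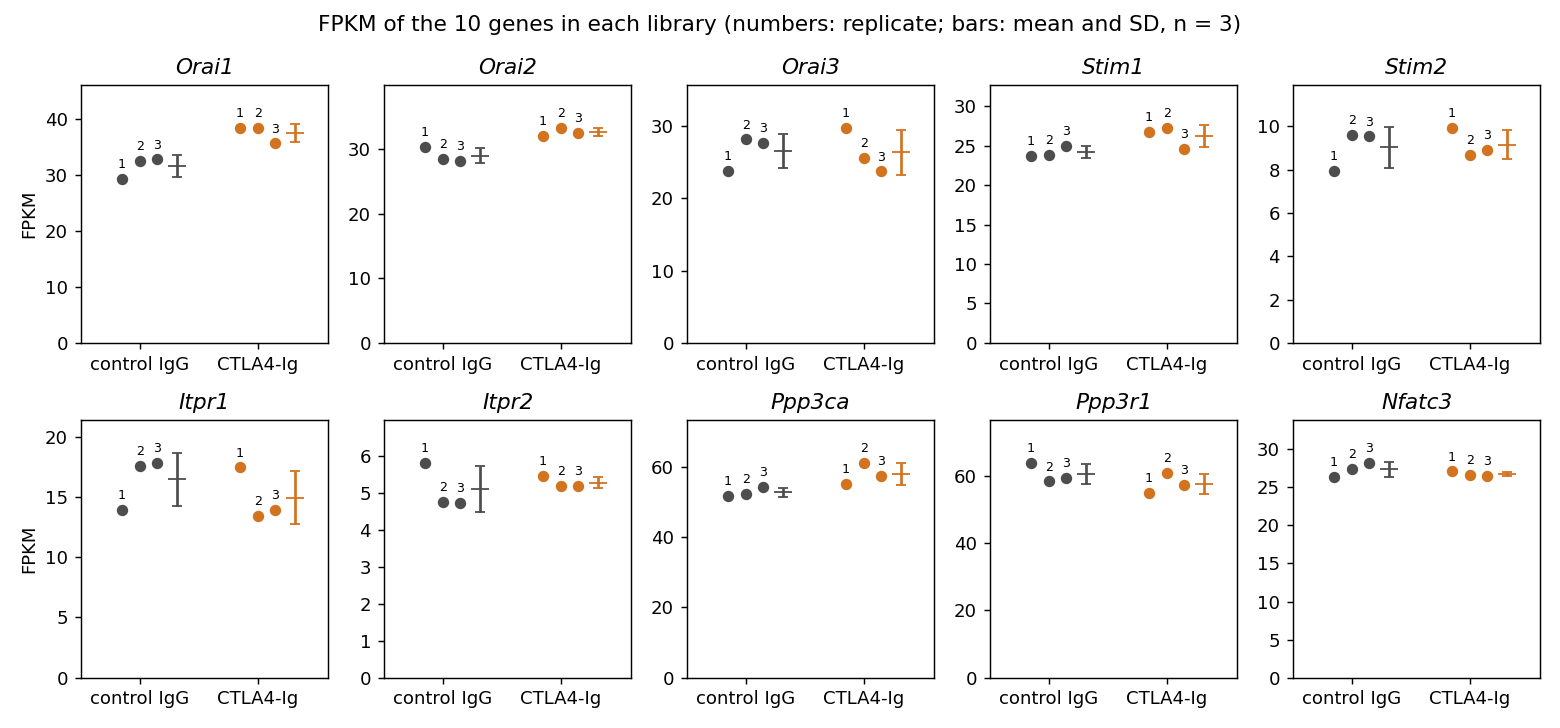
FPKM (vertical axes, each from 0) of the 10 genes in the 3 control IgG and 3 CTLA4-Ig libraries; points are libraries with their replicate number, bars the mean and SD. The groups do not overlap for Orai1, Orai2 and Ppp3ca, and they overlap for the other 7 genes.

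Of the channel genes, Orai1 and Orai2 stood higher in every CTLA4-Ig library than in any control library, and Orai3 did not. Orai1 encodes the pore-forming subunit of the main calcium release-activated channel of immune cells (chromosome 5, 123015074 to 123030456, plus strand, GRCm38). It stood at 38.4, 38.4 and 35.7 FPKM in CTLA4-Ig libraries 1 to 3 and at 29.3, 32.6 and 32.8 FPKM in control libraries 1 to 3. The lowest CTLA4-Ig library thus lay above the highest control, and control library 1 was the lowest of all. On the log2(FPKM + 1) scale the difference was 0.24 ± 0.07 (SE), with a 95% interval of 0.08 to 0.40. Limma gave an unadjusted p = 0.00914, rank 129 of 10865 genes, and a Benjamini-Hochberg adjusted p = 0.720, so the gene did not pass.

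Orai2 encodes a relative that can join the same channels and lessen their current (chromosome 5, 136147459 to 136170713, minus strand). It stood at 32.04, 33.2 and 32.5 FPKM with CTLA4-Ig and at 30.3, 28.4 and 28.2 FPKM in the controls. The groups did not overlap, and control library 1 came closest to the CTLA4-Ig libraries, the reverse of its place for Orai1. This made a log2 difference of 0.16 ± 0.06 (SE), with a 95% interval of 0.03 to 0.30 (limma, unadjusted p = 0.0220, adjusted p = 0.732). In limma the unadjusted p was above 0.05 without CTLA4-Ig library 2 (0.0630), control library 2 (0.0696) or control library 3 (0.0728).

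Orai3, the third channel gene, which can form mixed channels with Orai1 (chromosome 7, 127769815 to 127775150, plus strand), stood at 29.7, 25.6 and 23.7 FPKM with CTLA4-Ig and at 23.8, 28.2 and 27.7 in the controls. CTLA4-Ig library 1 and control libraries 2 and 3 were high, and the groups overlapped throughout. The log2 difference was -0.01 ± 0.10 (SE; limma adjusted p = 0.992), with a 95% interval of -0.26 to 0.23, which spans both directions. Orai1, Orai2 and Orai3 together summed to 96.4 ± 4.23 FPKM with CTLA4-Ig and 87.1 ± 3.17 in the controls (SD, n = 3). Orai1 made up 38.3, 39.5 and 38.8% of that sum with CTLA4-Ig and 35.1, 36.6 and 37.0% in the controls. The difference of 2.66 percentage points had a two-sided exact permutation p = 0.1, the smallest that 3 against 3 can give, and 0.167 after Benjamini-Hochberg adjustment over the 5 family shares tested. Orai3 made up 27.3 ± 2.10 and 30.4 ± 1.68% and Orai2 33.8 ± 1.71 and 33.3 ± 2.63% (SD, n = 3).

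Of the store sensors, Stim1 (chromosome 7, 102267806 to 102437319, plus strand), which encodes the main activator of ORAI channels, stood at 26.7, 27.3 and 24.6 FPKM with CTLA4-Ig and at 23.7, 23.9 and 25.04 in the controls. CTLA4-Ig library 3 lay between the controls, so the groups overlapped by that library. Stim1 had a log2 difference of 0.11 ± 0.06 (SE; limma unadjusted p = 0.125, adjusted p = 0.874), with a 95% interval of -0.04 to 0.26. Stim2 (chromosome 5, 53998499 to 54121057, plus strand) encodes the sensor that responds to small losses of stored calcium and keeps the resting level. It stood at 9.92, 8.66 and 8.89 FPKM with CTLA4-Ig and at 7.93, 9.62 and 9.54 in the controls, a log2 difference of 0.02 ± 0.10 (SE; limma adjusted p = 0.986). As for Orai3, CTLA4-Ig library 1 and control libraries 2 and 3 were the highest. Stim1 made up 74.1 ± 1.58% of the STIM sum with CTLA4-Ig and 72.9 ± 1.86% in the controls (SD, n = 3), with p = 0.4 in an exact permutation test, two-sided, before and after adjustment over the 5 shares.

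The release channel genes differed in their spread among libraries. Itpr1 (chromosome 6, 108213096 to 108551109, plus strand), an IP3 receptor of the endoplasmic reticulum, stood at 17.4, 13.4 and 13.9 FPKM with CTLA4-Ig and at 13.9, 17.6 and 17.8 in the controls. Each group held both high and low values, with CTLA4-Ig library 1 on the high side and control library 1 on the low side. Its coefficient of variation over the 6 libraries was 13.6%, the largest of the 10 genes, against a median of 8.02% over tested genes with a mean of 5 to 100 FPKM. Its log2 difference was -0.13 ± 0.13 (SE; limma unadjusted p = 0.340, adjusted p = 0.911), with a 95% interval of -0.44 to 0.18.

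Itpr2 (chromosome 6, 146108299 to 146502223, minus strand), a further IP3 receptor, stood at 5.46, 5.19 and 5.20 FPKM with CTLA4-Ig and at 5.82, 4.77 and 4.73 in the controls. Control library 1 was the highest and the other controls the lowest, the reverse of Itpr1 in the same libraries. The log2 difference was 0.05 ± 0.10 (SE; limma adjusted p = 0.968). Itpr3, which completes the family, stood at 5.54, 4.44 and 4.94 FPKM with CTLA4-Ig and at 5.65, 5.70 and 6.14 in the controls, without overlap, at a log2 difference of -0.20 ± 0.09 (SE; limma unadjusted p = 0.0776, adjusted p = 0.848). Itpr2 made up 21.1 ± 1.71% of the IP3 receptor sum with CTLA4-Ig and 18.8 ± 3.58% in the controls (SD, n = 3), with p = 0.4 in an exact permutation test, two-sided, before and after adjustment over the 5 shares. Without control library 1 that difference was 4.37 percentage points in place of 2.31.

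**Figure D2:**
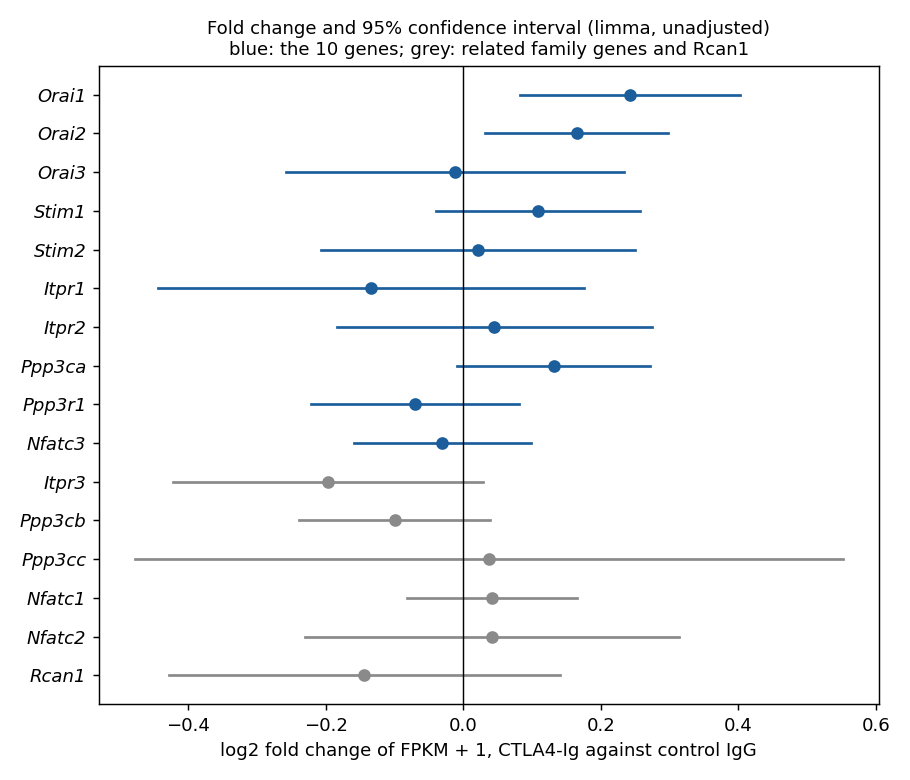
Log2 fold change of FPKM + 1, CTLA4-Ig against control IgG (horizontal axis), with the 95% interval from limma, for the 10 genes (blue) and for family genes and Rcan1 (grey). The intervals of Orai1 and Orai2 lie above 0, at 0.08 to 0.40 and 0.03 to 0.30, and those of the other 14 genes include 0.

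Among the calcineurin genes, Ppp3ca, which encodes the alpha form of the catalytic subunit (chromosome 3, 136670124 to 136937727, plus strand), stood at 55.0, 61.1 and 57.3 FPKM with CTLA4-Ig and at 51.8, 52.1 and 54.1 in the controls. The groups did not overlap, by a margin of less than 1 FPKM. The log2 difference was 0.13 ± 0.06 (SE; limma unadjusted p = 0.0618, adjusted p = 0.841), with a 95% interval of -0.01 to 0.27. Ppp3cb, the beta catalytic form, went the other way, at 24.1, 25.7 and 25.9 FPKM with CTLA4-Ig and 26.7, 26.4 and 28.2 in the controls, a log2 difference of -0.10 ± 0.06 (SE; limma adjusted p = 0.877). Ppp3cc, the gamma form, was low, at 1.75 ± 0.824 and 1.603 ± 0.129 FPKM (SD, n = 3). Ppp3ca therefore made up 68.2, 69.6 and 66.8% of the catalytic sum with CTLA4-Ig and 64.5, 65.1 and 64.6% in the controls. This difference of 3.46 percentage points was larger than the spread within either group, with p = 0.1 in the exact permutation test, its lowest value here, and 0.167 adjusted over the 5 shares.

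Ppp3r1 encodes the calcium-binding regulatory subunit (chromosome 11, 17159263 to 17200375, plus strand). It stood at 55.0, 60.8 and 57.2 FPKM with CTLA4-Ig and at 63.9, 58.3 and 59.5 in the controls, with overlap, a log2 difference of -0.07 ± 0.06 (SE; limma unadjusted p = 0.309, adjusted p = 0.906). Its annotated exons reach into the span of Wdr92 on the same strand, a gene at a mean of 7.29 FPKM. Whether they overlap exons of Wdr92 was not checked. If they do, part of the Ppp3r1 reads may have been assigned to that gene. Ppp3r2, the testis form, was listed at 0 in all 6 libraries. The ratio of Ppp3ca to Ppp3r1, computed after their values were seen and not tested, was 1.001, 1.005 and 1.002 with CTLA4-Ig and 0.810, 0.893 and 0.909 in the controls. The 3 CTLA4-Ig libraries were thus nearly equal in this ratio, although Ppp3ca ranged from 55.0 to 61.1 FPKM in them. Counting alone would give a coefficient of variation of about 2.07% for Ppp3ca and 2.53% for Ppp3r1. The near equality is closer than that precision, so no constancy of the ratio can be read from it.

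Nfatc3 (chromosome 8, 106058840 to 106130537, plus strand), which encodes an NFAT factor present before stimulation in many immune cells, was the steadiest of the 10. It stood at 27.1, 26.6 and 26.5 FPKM with CTLA4-Ig and at 26.3, 27.5 and 28.2 in the controls, a coefficient of variation of 2.63% over the 6 libraries, near the 2.59% that counting would give at its lowest estimate. Its log2 difference was -0.03 ± 0.05 (SE; limma adjusted p = 0.957), with a 95% interval of -0.16 to 0.10. Nfatc1, the NFAT factor that drives osteoclast formation, stood at 24.6, 24.1 and 24.1 FPKM with CTLA4-Ig and at 23.7, 23.0 and 23.9 in the controls. These groups did not overlap, but the log2 difference was 0.04 ± 0.05 (SE; limma unadjusted p = 0.447, adjusted p = 0.928). Nfatc2 was lower, at 3.74 ± 0.243 and 3.62 ± 0.528 FPKM (SD, n = 3), and Nfatc4 was listed at 0 in 5 of 6 libraries and at 0.0327 FPKM in CTLA4-Ig library 1. Nfatc3 made up 48.9, 49.1 and 48.6% of the NFATc sum with CTLA4-Ig and 49.7, 50.5 and 50.3% in the controls, a difference of -1.33 percentage points (exact permutation test, p = 0.1, its lowest value here; 0.167 adjusted over the 5 shares).

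**Figure D3:**
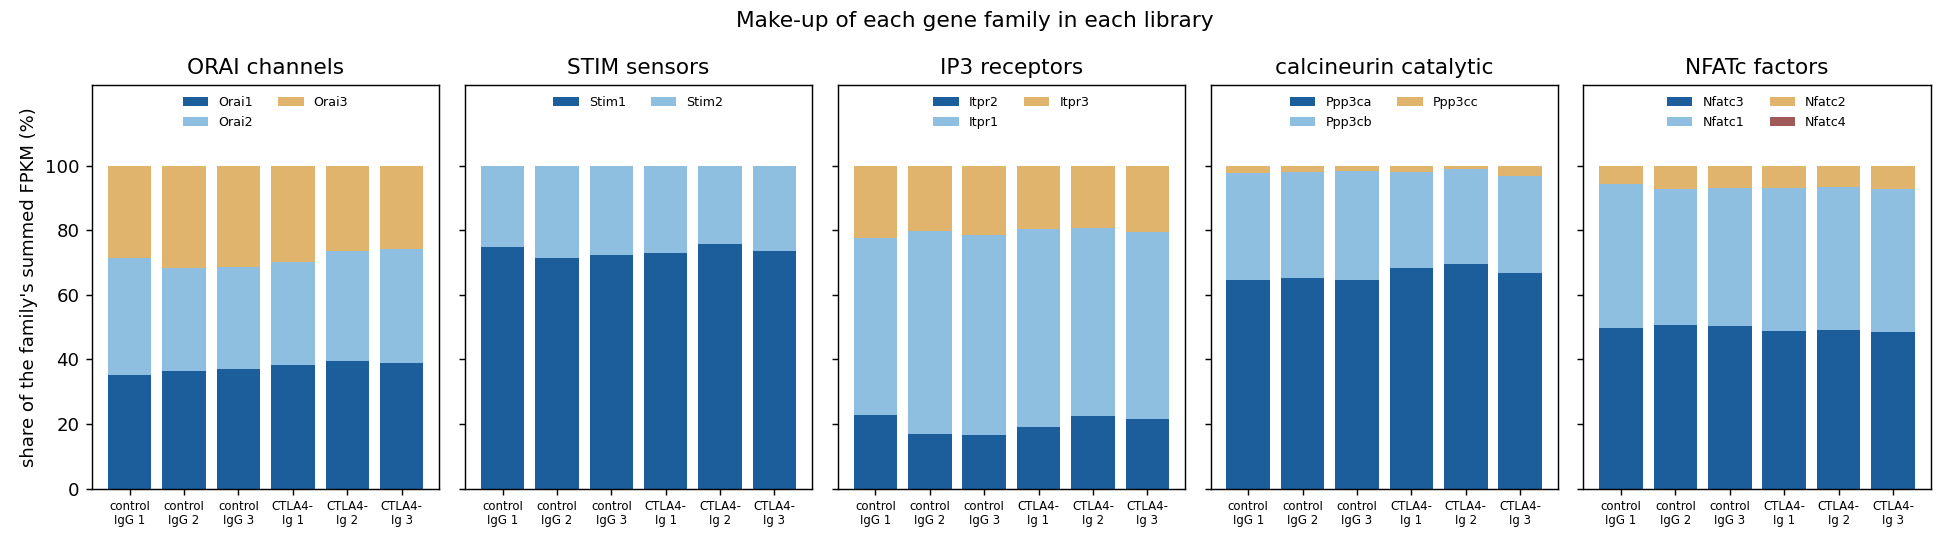
Share of each family's summed FPKM (vertical axis, percent) held by each gene in each library. Orai1 holds 35.1 to 37.0% of the ORAI sum in the controls and 38.3 to 39.5% with CTLA4-Ig, and Ppp3ca 64.5 to 65.1% and 66.8 to 69.6% of the catalytic sum.

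Counted together, 6 of the 10 genes had a positive log2 difference and 4 a negative one, with a median of 0.03, beside -0.01 over all 10865 genes tested. In limma 0 of the 10 passed at a Benjamini-Hochberg adjusted p under 0.05, as did 0 of all genes tested (0%), where 6.07% had an unadjusted p under 0.05. At that unadjusted level stood 2 of the 10, both higher with CTLA4-Ig, beside 4.09% of all genes in that direction and 1.98% in the other. The groups did not overlap for 3 of the 10, all higher with CTLA4-Ig, beside 12.2% of all genes in either direction, 6.5% in that one and 5.69% in the other. Without control library 1 the groups did not overlap for 6 of the 10: Orai1, Orai2, Itpr2 and Ppp3ca higher, Itpr1 and Nfatc3 lower. With so few controls left, 26.2% of all genes were then without overlap. The summed neutrophil markers also separated the groups, at the values given above. The part of these markers in the values of Orai1, Orai2 and Ppp3ca was not tested. In bulk libraries of sorted cells a lower share of a cell type and less RNA per cell cannot be told apart.

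A second pattern cut across the treatment. Orai3, Stim2, Itpr1 and Nfatc3 had their highest 3 values in the same libraries, CTLA4-Ig library 1 and control libraries 2 and 3. Of all genes tested 9.06% shared this pattern, more than for any other set of 3 libraries. Itpr1 deviated from its 6-library mean by 0.15, 0.17 and 0.18 on the log2 scale in those 3 libraries and by -0.20, -0.16 and -0.15 in CTLA4-Ig libraries 2 and 3 and control library 1. For Orai3 the deviations were 0.17, 0.09 and 0.07 against -0.04, -0.15 and -0.14, and for Stim2 0.12, 0.08 and 0.07 against -0.06, -0.03 and -0.17. Those of Nfatc3 were small, at 0.002, 0.02 and 0.06 against -0.02, -0.03 and -0.04. Its coefficient of variation of 2.63% was near the 2.59% of counting alone, so its place in the pattern is uncertain. Of the cell type marker lists, only those of dendritic cells and B cells had their highest mean log2 values in the same 3 libraries. Dendritic cell markers deviated by 0.12, 0.08 and 0.21 there and by -0.12, 0.07 and -0.36 in the others, and summed to 144.8 to 191 FPKM with CTLA4-Ig and 138 to 199 in the controls. B cell markers deviated by 0.20, 0.11 and 0.21 and by -0.03, -0.20 and -0.30, and summed to 16.04 to 22.6 and 14.1 to 23.5 FPKM, with 0 of 7 listed at 0 throughout. Of these 7, 4 reached a mean of 1 FPKM. Not every marker followed the mean of its list. The dendritic cell markers Flt3 and Xcr1 were highest in control library 1. The B cell marker Ms4a1 was lowest in CTLA4-Ig library 1 and control library 3. The part of these cell types in the pattern was not tested.

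**Figure D4:**
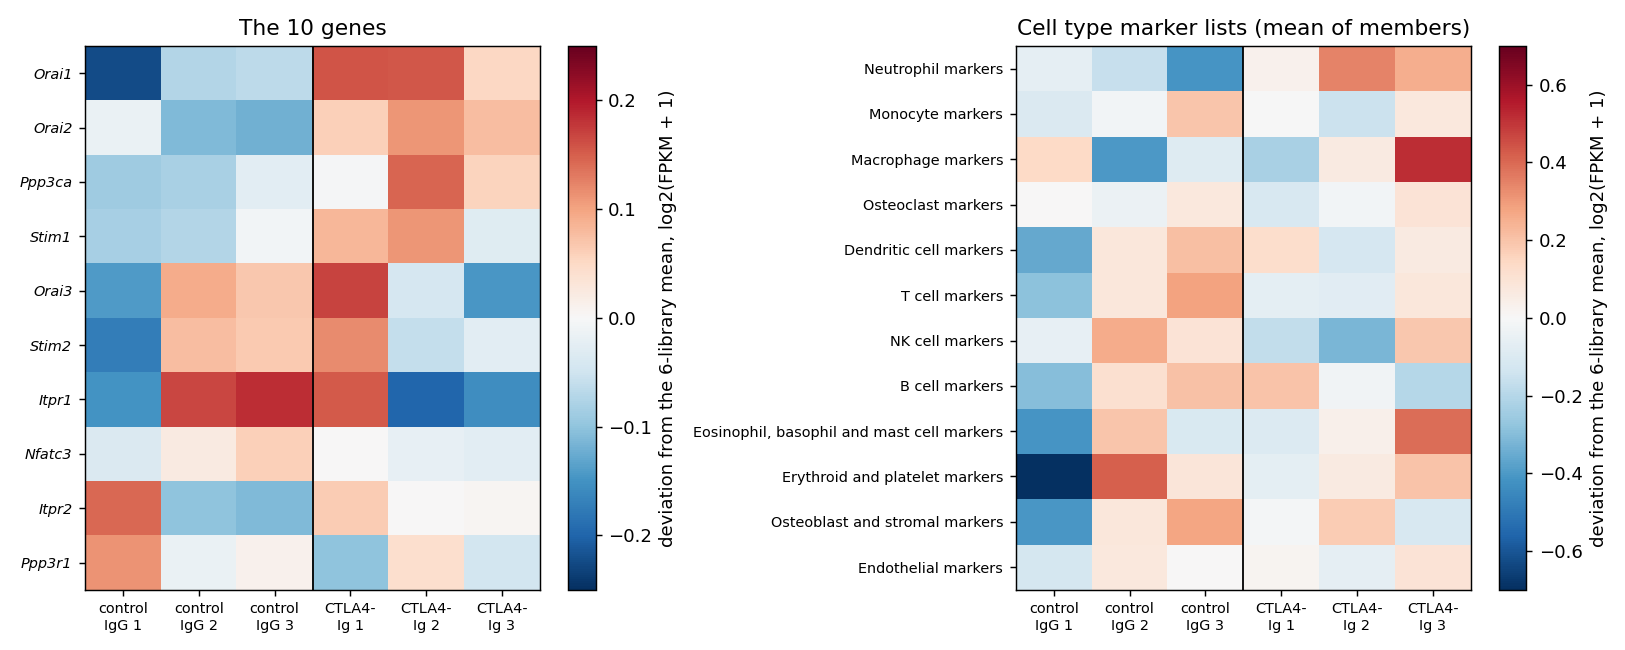
Deviation of each library from the 6-library mean on the log2(FPKM + 1) scale (colour; the left and right scales differ) for the 10 genes and for the mean of each cell type marker list. Orai3, Stim2, Itpr1 and, by small deviations, Nfatc3 are highest in CTLA4-Ig library 1 and control libraries 2 and 3. Neutrophil markers range from -0.41 in control library 3 to 0.35 in CTLA4-Ig library 2.

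The rest of the pathway was read from 7 lists of 97 distinct further genes, of which 78 were tested: 37 had a positive and 41 a negative log2 difference, with a median of -0.01, and 0 passed in limma. An unadjusted p under 0.05 was reached by 9 of the 78 and absence of overlap by 13, shares of 11.5 and 16.7%, beside 6.07 and 12.2% of all genes tested. Upstream of IP3, 10 of 15 tested genes were positive (median 0.06), 1 of them at an unadjusted p under 0.05. Plcb2, the phospholipase C that chemoattractant receptors engage, stood at 52.6, 62.4 and 53.2 FPKM with CTLA4-Ig and at 43.6, 48.9 and 47.7 in the controls, a log2 difference of 0.26 ± 0.08 (SE; limma adjusted p = 0.724). Lyn, a Src family kinase, had -0.11. Tyrobp and Fcer1g, which encode adaptors that carry ITAM activation motifs, were abundant, at 2562 ± 20.95 and 2382 ± 191 FPKM for Tyrobp and 1057 ± 62.4 and 1010 ± 11.1 for Fcer1g (SD, n = 3).

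In the list of store and entry regulators 3 of 13 tested genes were positive and 10 negative (median -0.06), with 1 in each direction at an unadjusted p under 0.05. Atp2a3, the SERCA3 pump that returns calcium to the store in blood cells, stood at 142, 159 and 138 FPKM with CTLA4-Ig and at 110.8, 126.7 and 127.2 in the controls, a log2 difference of 0.27 ± 0.08 (SE; limma adjusted p = 0.720). The negative genes included chaperones that bind calcium in the store. Canx had -0.15 ± 0.06 (SE; limma unadjusted p = 0.0420), Calr -0.21 ± 0.09 and Hspa5 -0.24 ± 0.24, and Hspa5 ranged from 168 to 299 FPKM within the CTLA4-Ig group. Of 9 plasma membrane and mitochondrial transport genes 4 were positive, with 0.09 ± 0.07 (SE) for Atp2c1, the Golgi calcium pump. Slc24a6, the older symbol of the mitochondrial sodium-calcium exchanger gene, had -0.01. Of 8 other calcium channel genes 4 were positive. P2rx1, an ATP-gated channel of neutrophils and platelets, stood at 6.05, 11.05 and 8.66 FPKM with CTLA4-Ig and at 4.23, 5.54 and 5.42 in the controls, a log2 difference of 0.63 ± 0.20 (SE; limma adjusted p = 0.720). P2rx7, Trpv2 and Trpm7, the other named channels, had -0.14, -0.01 and -0.04.

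Downstream, 5 of 13 further calcineurin and calmodulin genes were positive (median -0.05). Rcan1, whose inner promoter is printed above, stood at 10.3, 8.52 and 11.5 FPKM with CTLA4-Ig and at 12.4, 11.01 and 10.3 in the controls. These values do not separate transcripts of the inner promoter from those of the outer promoter. The groups overlapped, at a log2 difference of -0.14 ± 0.12 (SE; limma unadjusted p = 0.268, adjusted p = 0.904). Fkbp1a, the binding protein through which tacrolimus inhibits calcineurin, had -0.20 ± 0.08 (SE; limma unadjusted p = 0.0467). Camk2d, a calmodulin-dependent kinase gene, had -0.48 ± 0.24 and stood at 20.4 FPKM in control library 1 against 11.9 and 10.0 in the other controls. Without control library 1 its difference was -0.20. Calm2, which encodes calmodulin, had 0.12 ± 0.08 (SE) and Ppia, the cyclophilin A gene, -0.05. Of 14 further NFAT genes and NFAT kinases 8 were positive (median 0.01). Lrrk2, a kinase reported to hold NFAT in the cytosol, stood at 19.97, 22.9 and 22.2 FPKM with CTLA4-Ig and at 18.3, 17.9 and 17.0 in the controls, a log2 difference of 0.28 ± 0.07 (SE; limma unadjusted p = 0.00665, adjusted p = 0.720). The scaffold gene Homer3 had 0.24, and the NFAT kinase genes Csnk1a1 and Gsk3a had -0.06 and -0.05.

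Of 10 genes listed as NFATc1 targets of osteoclasts, 6 could be tested and 3 were positive, namely Mmp9, Itgb3 and Fos. The place of Fos as an NFATc1 target is not established here. Mmp9, a matrix protease that neutrophils make too, stood at 195, 237 and 184 FPKM with CTLA4-Ig and at 103.6, 127.7 and 73.3 in the controls, a log2 difference of 1.04 ± 0.20 (SE; limma adjusted p = 0.720). It is also among the neutrophil markers. Itgb3, the integrin β3 gene, stood at 10.7, 11.4 and 11.6 FPKM with CTLA4-Ig and at 5.30, 10.1 and 8.65 in the controls (log2 difference 0.48 ± 0.20, SE; limma adjusted p = 0.816). Fos ranged from 39.5 to 149 FPKM within the controls, and Calcr, the calcitonin receptor gene of mature osteoclasts, was listed at 0 in 5 of 6 libraries.

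**Figure D5:**
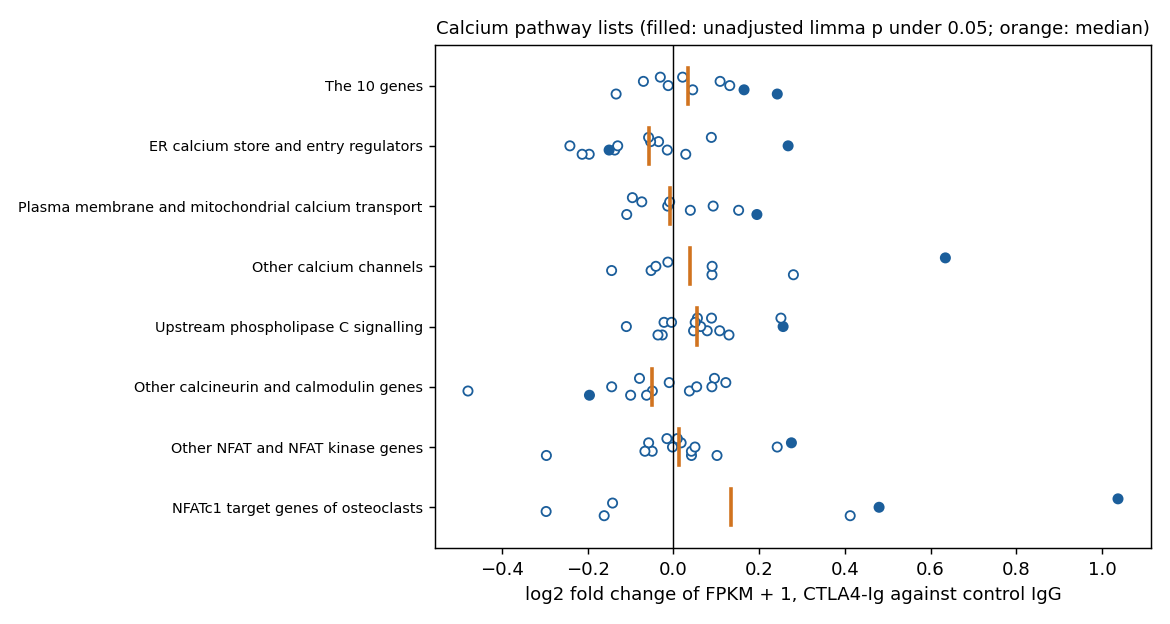
Log2 fold change of FPKM + 1, CTLA4-Ig against control IgG (horizontal axis), of each tested gene in the 10 genes and the 7 further lists; filled points have an unadjusted limma p under 0.05 and orange marks the median of a list. Medians lie between -0.06 and 0.14, and the farthest point is Mmp9 at 1.04.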

How the data were processed

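Transcript levels were measured by RNA-seq in 6 libraries of sorted EGFP-positive cells, 3 per group; the treatment label gave the group and the title the replicate number. The deposited values are FPKM, 1 per gene name and library, scaled between libraries by the authors. The submitters' processing notes name Cuffnorm 2.2.1, SAMtools 0.1.19, Bowtie2 2.2.3 and TopHat2 2.0.13, and the build mm10 (GRCm38). The sources used here do not give annotation, settings or use of strand in counting, although per the labels' protocols the library kit keeps strand. Orai1, Itpr1, Ppp3r1 and Nfatc3 have exons that reach into the span of other annotated genes. Whether exons of both genes overlap was not checked, and their values are uncertain where the counting split such reads.

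The test was limma 3.58.1 (R 4.3.3; lmFit and trended eBayes) on log2(FPKM + 1), for genes whose mean reached 1 FPKM, with 1 factor for the group and Benjamini-Hochberg adjustment over all 10865 genes at 0.05. This scale understates the change of low genes. Family shares were compared over libraries by exact permutation, two-sided. The 10 genes and the lists were chosen with earlier results of these data known. Named genes were the 10, the rest of their families, Rcan1 and, from each further list, the 2 genes of smallest p and the 2 of highest mean. Of these, 1 gene is not reported here. The limma fit was tried on simulated data, and the permutation test was not. Positions come from GENCODE M21 and promoters from RefSeq (GRCm38.p6), where 8 of the 10 genes had a window.

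Depth was estimated in 802 genes with 1 transcript over 3000 bases, as the number of fragments that makes low values whole multiples, assuming fragments of 200 bases; 60.6 to 66.4% of low values were then whole within 0.1. No counts were rebuilt. The alternatives were other pseudocounts, filters, scalings and priors, leaving out each library, weights per library and a block for the replicate number.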

Additional observations from a re-analysis of the deposited data

How the results depend on the processing

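Over all genes limma called 0 at an adjusted p under 0.05 with all 6 libraries, under each of the 10 alternatives that kept them, and 0 to 6 when 1 library was left out; the count at an unadjusted p under 0.05 was 659, and 347 to 868 when 1 library was left out, lowest without CTLA4-Ig library 2. Of the 10 genes, 2 had an unadjusted limma p under 0.05, beside 6.07% of all genes tested. When 1 library was left out 1 to 3 did (1 without CTLA4-Ig library 2, control library 2 or control library 3). With the replicate block the count was 1, since limma then gave Orai2 an unadjusted 0.0530 and an adjusted p = 0.864. The deviations of same-numbered libraries correlated at -0.154, -0.0942 and -0.0235, and no library correlated best with its own number. With 3 libraries per group this cannot show whether same-numbered libraries belong together. The block cannot turn a direction in this balanced design, so the unchanged directions of the 10 genes are no test. The groups did not overlap for 3 of the 10, beside 12.2% of all genes tested. When 1 library was left out this held for 3 to 6 of the 10, with 6 without control library 1, beside 17.9 to 26.2% of all genes.

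Orai1 kept its direction in all 16 alternatives, with log2 differences of 0.191 to 0.277 and unadjusted limma p of 0.00695 to 0.0335. Orai2 kept its direction too, with 0.146 to 0.197 and p of 0.00716 to 0.0728. The adjusted p of both never fell below 0.501. Other filters, other priors and the replicate block cannot change a difference, which stayed at 0.242 for Orai1 in them. Directions could turn only under other pseudocounts, scalings, library weights and left-out libraries. Stim1, Itpr1, Itpr2, Ppp3ca, Ppp3r1 and Nfatc3 also kept their directions, but their sizes moved. With 1 library left out the log2 difference ran from 0.0807 to 0.151 for Stim1, from -0.244 (without CTLA4-Ig library 1) to -0.0677 (without CTLA4-Ig library 2) for Itpr1, from 0.000996 (without control library 3) to 0.128 (without control library 1) for Itpr2, from 0.0916 to 0.166 for Ppp3ca, from -0.108 (without CTLA4-Ig library 2) to -0.0314 (without control library 1) for Ppp3r1 and from -0.0564 (without control library 1) to -0.00814 (without control library 3) for Nfatc3. It ran from -0.0996 to 0.0576 for Orai3, from -0.0601 to 0.0649 for Stim2, from -0.189 to 0.232 for Ppp3cc, from -0.0567 to 0.0921 for Nfatc2, from -0.0336 to 0.000527 for Slc24a6, from -0.0516 to 0.0264 for Trpv2 and from -0.212 to 0.733 for Fos. With array weights it turned to -0.0266 for Stim2, -0.0295 for Nfatc2 and 0.00541 for Trpv2, and with quantile normalization to -0.0268 for Fcer1g; the cause was not tested. The median log2 difference of all genes was -0.00633 in the main fit, -0.00334 after median-of-ratios scaling and -0.0106 after quantile normalization. The 5 differences in family share kept their sign; with 1 library left out they ran from 2.11 to 3.04 percentage points for Orai1, 0.310 to 2.24 for Stim1, 1.15 to 4.37 for Itpr2, 2.76 to 4.16 for Ppp3ca and -1.58 to -1.14 for Nfatc3. The number of libraries, 3 per group, limits the precision.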
